A study of Homo sapiens with 48 samples.

Results

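Inhibition of EZH2 was examined in Oci-Ly7, a human line of germinal centre type diffuse large B cell lymphoma. The comparison uses the 3 libraries of Oci-Ly7 cells treated with the EZH2 inhibitor GSK343 (EZH2i) and the 3 libraries of Oci-Ly7 cells treated with DMSO, chosen by their column names from the 48 libraries of the series, and it covers all genes. The series exposed Oci-Ly7 and 3 more such lines (Oci-Ly8, Oci-Ly18, SUDHL6) to EZH2i, to the DOT1L inhibitor EPZ-5676, to both agents or to DMSO, and asked how these enzymes act on cell identity. Treatment lasted 6 days in all groups, with cells reseeded in fresh medium with inhibitor at day 3, and poly(A) RNA was sequenced. The EZH2i and DMSO libraries of Oci-Ly8, SUDHL6 and Oci-Ly18, 18 in all, serve as the comparison with other lines. The labels' treatment text names no line and their growth text does not name Oci-Ly7, so that both apply to it is assumed. The sources used here state neither the doses nor the EZH2 genotype of the lines. Nothing in the labels says that replicates were separate cultures, so the p-values cover the spread of these libraries, which may be technical.

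EZH2 carries the methyltransferase activity of Polycomb repressive complex 2 (PRC2), which methylates histone H3 at lysine 27 and so helps to keep genes silent. Germinal centre B cells have high EZH2 levels, and in them PRC2 holds back genes of plasma cell differentiation and of cell cycle arrest. GSK343 competes with the methyl donor S-adenosylmethionine at the active site of EZH2 and blocks its activity without removing the protein, so the EZH2 transcript is not a check of the treatment.

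Library totals (whole-number counts per gene, summed) ran from 15916198 to 16399884 counts with EZH2i and from 14555102 to 18845074 with DMSO. Mitochondrial transcripts took 5.29 to 5.66% of counts with EZH2i and 5.41 to 5.88% with DMSO. Across genes, log2 levels correlated at 0.995 or more within a group and at 0.985 to 0.987 between groups. Markers matched the labelled cell type in the main: with EZH2i the B cell genes PAX5, CD79A and MS4A1 averaged 188.2, 403.3 and 1227 CPM (counts scaled to library size, times 1e+06), and the germinal centre genes BCL6 and MME averaged 206.8 and 316.7 CPM. LMO2, another germinal centre marker, was near 0 in both groups, at 0.083 CPM with EZH2i and 0.0857 CPM with DMSO.

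After EZH2i, more genes were higher than lower, and the large changes were nearly all increases. Of 17749 genes tested, 1559 were called higher (8.78%) and 874 lower (4.92%), in edgeR's quasi-likelihood test at a Benjamini-Hochberg adjusted p under 0.05. Among called genes that changed at least 2-fold, 497 were higher (2.8% of genes tested) and 67 lower (0.377%), and at 4-fold or more the numbers were 240 and 11. The median log2 fold change (EZH2i over DMSO) was 0.65 for genes called higher and -0.36 for genes called lower, against 0.0056 over all genes tested. The numbers of calls rest on the fit, that of lower genes most. It was 1386 with the replicate number as a block. It was 1403 without Oci-Ly8 DMSO replicate 3 and DOT1L inhibitor replicate 3, which share the estimate of spread. These 2 libraries had normalization factors of 0.87 and 0.90, against 0.919 to 0.999 in the other Oci-Ly8 libraries. Of the 874 genes, all were among the 1386 and 873 among the 1403. Genes called higher numbered 2042 and 1966 in these fits, against 1559.

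Direction differed with the level of the gene. Of the 5458 genes that averaged under 1 CPM over the 6 libraries, 5.11% were called higher and 0.238% lower. Between 10 and 100 CPM the shares were 11.4% and 7.03% of 6188 genes. Of the 2298 genes above 100 CPM, 4.83% were called higher and 14% lower. The median log2 fold change of genes called higher was 2.54 under 1 CPM and 0.33 above 100 CPM. At low counts only a large change can pass the test and a fall can hardly be called, so these shares and medians depend on the threshold, and 1092 of the genes tested had 0 counts in all 6 libraries. Among protein-coding genes 10.5% were called higher and 6.06% lower, and among lncRNAs 4.2% and 1.65%.

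**Figure D1:**
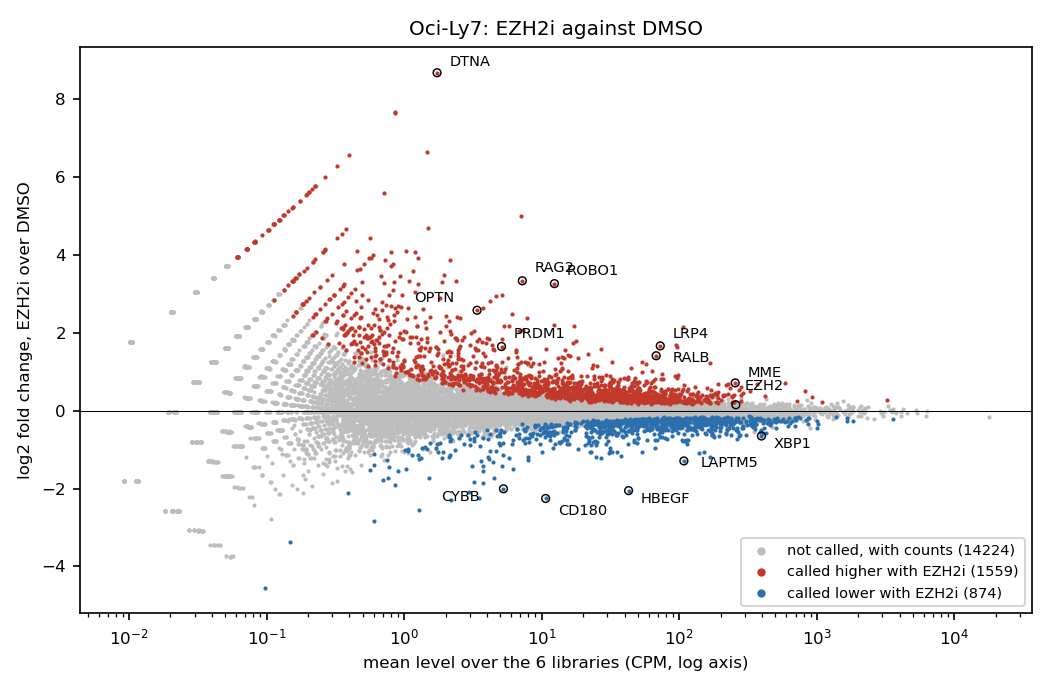
Log2 fold change of EZH2i over DMSO (vertical axis) against mean CPM over the 6 Oci-Ly7 libraries (log axis), one point per gene with counts. The 1559 genes called higher reach far from 0 on the left, where levels are low, and the 874 called lower lie mostly on the right, at small fold changes.

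**Figure D2:**
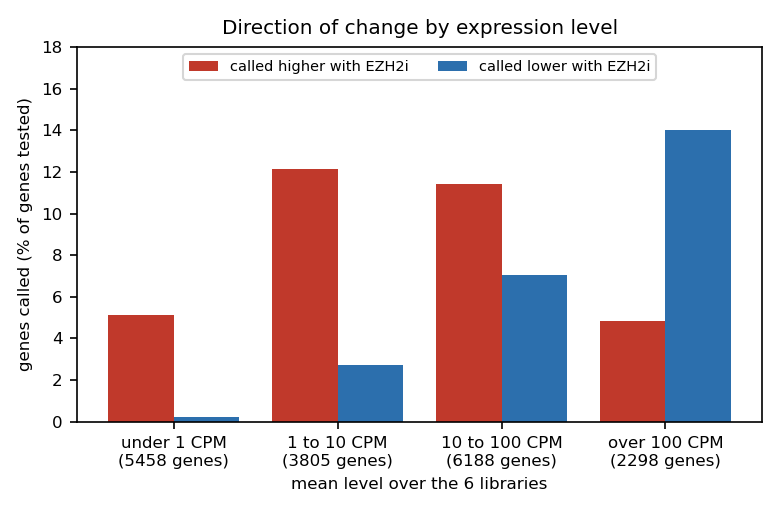
Share of tested genes called higher and called lower with EZH2i (bars, in percent) in 4 classes of mean CPM over the 6 libraries. Calls higher with EZH2i exceed calls lower in the 3 classes up to 100 CPM, and above 100 CPM the lower calls exceed the higher ones, 4.83% higher against 14% lower.

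Promoter sequences are shown for 4 genes whose changes recur below, because CpG-rich promoters are the usual sites of PRC2 binding and these 4 span the range of CpG content. OPTN, CTNNA1 and RAG2 were higher and CD180 lower with EZH2i. Each line gives RefSeq sequence of GRCh38.p14, 5′ to 3′ on the gene's strand, from 250 bases before the start to 50 after it, with each CG in capitals. The windows are chr10:13099832-13100131 (plus strand) for OPTN, chr5:138753175-138753474 (plus) for CTNNA1, chr11:36598187-36598486 (minus) for RAG2 and chr5:67196750-67197049 (minus) for CD180.
OPTN: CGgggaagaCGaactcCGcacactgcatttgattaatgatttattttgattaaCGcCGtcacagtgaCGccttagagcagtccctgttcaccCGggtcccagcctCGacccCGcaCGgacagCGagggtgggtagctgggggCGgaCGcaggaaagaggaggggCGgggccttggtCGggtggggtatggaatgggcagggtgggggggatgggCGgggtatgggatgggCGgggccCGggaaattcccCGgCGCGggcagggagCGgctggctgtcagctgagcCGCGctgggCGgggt
CTNNA1: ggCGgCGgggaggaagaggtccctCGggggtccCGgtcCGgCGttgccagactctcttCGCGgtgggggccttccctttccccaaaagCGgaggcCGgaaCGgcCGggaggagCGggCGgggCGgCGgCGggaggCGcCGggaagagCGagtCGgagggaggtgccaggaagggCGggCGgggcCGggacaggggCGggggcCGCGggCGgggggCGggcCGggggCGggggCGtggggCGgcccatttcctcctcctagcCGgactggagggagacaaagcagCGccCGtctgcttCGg
RAG2: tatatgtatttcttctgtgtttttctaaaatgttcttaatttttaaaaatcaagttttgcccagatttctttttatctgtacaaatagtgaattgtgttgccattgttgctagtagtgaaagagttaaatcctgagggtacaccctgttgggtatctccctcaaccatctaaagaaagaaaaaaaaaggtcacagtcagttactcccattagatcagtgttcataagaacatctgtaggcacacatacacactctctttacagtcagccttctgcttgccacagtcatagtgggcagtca
CD180: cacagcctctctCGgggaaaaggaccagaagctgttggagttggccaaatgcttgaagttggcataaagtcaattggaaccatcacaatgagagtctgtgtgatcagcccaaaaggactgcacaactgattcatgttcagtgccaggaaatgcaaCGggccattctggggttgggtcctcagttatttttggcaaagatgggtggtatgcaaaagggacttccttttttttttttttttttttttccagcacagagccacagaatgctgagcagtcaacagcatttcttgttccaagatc

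The OPTN window holds 25 CG and that of CTNNA1 37, while the RAG2 window holds 0 and that of CD180 2. Over all protein-coding genes, promoter windows of the table were matched by symbol for 10913 of 13502 tested genes (80.8%). The median number of CG per 300 bases, which read the same on both strands, was 28 for genes called higher, 26 for genes called lower and 26 for genes not called. Windows with at least 10 CG made up 82.2%, 85.7% and 87.0% of these sets and 56.4% of all windows in the table. The medians of the 3 sets lay within 2 CG of each other. No test was run on CG content. Among genes called lower by at least 2-fold the windows held fewer CG. The median was 13 for the 36 matched genes (83.7% matched), 58.3% of which had at least 10 CG. The 325 matched genes called higher by at least 2-fold had a median of 20 and a share of 67.4%. Only 77.6% of those genes had a window, which is too few to compare them with the other sets. Level was not held equal in these comparisons. Genes not called that averaged under 1 CPM also had a lower median, 22, and a share of 73.8% (76% matched). Between 10 and 100 CPM the medians were 30 for genes called higher, 25 for genes called lower and 26 for genes not called.

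The largest rises among genes of at least 1 on the log2 CPM scale included RAG2, ROBO1 and MOBP. Both RAG2 and ROBO1 had counts in the other lines. With DMSO, RAG2 averaged 56.3 ± 11.6 CPM in Oci-Ly8, 142.5 ± 6.5 CPM in SUDHL6 and 81.2 ± 3.8 CPM in Oci-Ly18, and ROBO1 averaged 47.6 ± 16.1, 5.31 ± 0.39 and 103.8 ± 5.9 CPM in these lines (SD, n = 3 libraries each). MOBP averaged at most 0.0211 CPM there. RAG2 (chr11:36575574-36598279, hg38, as the deposited table gives it), which with RAG1 cuts DNA during antigen receptor assembly in lymphoid precursors, stood at 11.3, 16.5 and 11.8 CPM with EZH2i and at 0.834, 1.98 and 0.943 CPM with DMSO. The log2 fold change was 3.33 ± 0.27 (SE, adjusted p = 8.0e-12). Groups that do not overlap were a condition for the largest rises, and 18.2% of all genes tested met it with EZH2i higher. ROBO1, a receptor for the axon guidance protein SLIT, had 21.9, 28.3 and 17.1 CPM with EZH2i against 1.53, 2.85 and 2.49 CPM with DMSO, a log2 fold change of 3.26 ± 0.38 (adjusted p = 8.9e-08). MOBP, a myelin protein gene, had 9.59, 18.4 and 13.2 CPM with EZH2i against 0.0695, 0.274 and 0.943 CPM with DMSO. It showed the largest log2 fold change of this class, 5.00 ± 0.70 (adjusted p = 4.9e-05), from DMSO levels that differed widely among themselves. The others of the 10 largest rises were GLYATL2 and TENM1 (2.96 each), MAT1A (2.80), CCDC112 (2.64), OPTN (2.58), ACKR3 (2.48) and MYH7B (2.38). TENM1 is a teneurin adhesion protein of neurons, MAT1A makes S-adenosylmethionine in liver, and ACKR3 is a scavenger receptor for the chemokine CXCL12. OPTN, the autophagy receptor optineurin, stood at 5.16, 6.46 and 5.86 CPM with EZH2i and at 0.625, 1.15 and 1.08 CPM with DMSO.

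RAG1, named after its values were seen, had 0.789, 1.82 and 1.04 CPM with EZH2i against 0.139, 0.11 and 0.27 CPM with DMSO. Its log2 fold change of 2.78 ± 0.85 was called (adjusted p = 0.023) but not without DMSO replicate 1 (0.067), DMSO replicate 2 (0.11) or EZH2i replicate 2 (0.13). RAG1 and RAG2 overlap in the deposited table's coordinates, and with the strand setting of the counting unknown their reads cannot be fully told apart. IGLL1, part of the surrogate light chain of precursor B cells and also named after its values were seen, had 2.49, 2.88 and 1.4 CPM with EZH2i against 0.139, 0.11 and 0.135 CPM with DMSO (log2 fold change 4.07 ± 0.72, adjusted p = 7.9e-05). Other precursor genes were not called. VPREB3 was not called (31.9 ± 4.2 and 34.9 ± 5.4 CPM, SD, n = 3 libraries each for EZH2i and DMSO), DNTT did not pass with the filter (log2 fold change 1.14, adjusted p = 0.15; 0.044 with the replicate block, 0.022 in DESeq2, 0.015 with no filter and 0.019 with the 6 libraries alone), and VPREB1 had 1 count with EZH2i and 0 with DMSO.

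Most of the 8 rises with the smallest p were in more abundant genes whose libraries lay close together. OPTN, whose low levels are given above, was among the 8 as well (adjusted p = 1.2e-14). LRP4 (chr11:46856717-46918642), a receptor of the LDL family that acts in WNT signalling and at synapses, had 109.4, 119.8 and 102.5 CPM with EZH2i against 34.5, 38.5 and 31.7 CPM with DMSO (log2 fold change 1.66 ± 0.11, adjusted p = 1.9e-15). RALB, a small GTPase of the RAS family, had 95.5, 110.8 and 89.7 CPM with EZH2i against 38.9, 34.7 and 37.9 CPM with DMSO, and the groups do not overlap. Calls of similar strength were reached by ENAH, which extends actin filaments (log2 fold change 1.24), CTNNA1, the adhesion protein alpha-catenin (1.00), the motor protein MYO1D (1.19), the chaperone DNAJB4 (1.59) and CCDC92 (1.57). CCDC92 overlaps DNAH10 and ZNF664, which were called higher too. CTNNA1 stood at 69.3, 74.4 and 71.2 CPM with EZH2i and at 35.9, 36.8 and 34.9 CPM with DMSO.

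Some genes had counts only after treatment. With 0 counts in all 3 DMSO libraries, 52 genes were called higher, 48 of them protein coding, of 1683 tested genes with 0 counts there. A total of 0 over the DMSO group allows up to 3 counts, or 0.0632 CPM, which covers counting error only. DTNA, the cytoskeletal protein dystrobrevin alpha, had 2.73, 4.14 and 3.54 CPM with EZH2i, at least 54.9-fold higher than this floor. ASAP2, which regulates ARF GTPases, was at least 27-fold higher, the adhesion molecule NRCAM at least 12.7-fold and the cell cycle inhibitor CDKN1C at least 7.12-fold. ATRN was at least 10.3-fold higher on average, with 0.971, 0.0627 and 0.915 CPM in the 3 EZH2i libraries, so 1 library lay near the floor. C7 and PROX1 were also among those with most counts, and C7 was not called by DESeq2 (adjusted p = 0.67). The number of such genes was 30, 23 and 28 without DMSO replicate 1, 2 and 3, 14 in a fit of the 12 Oci-Ly7 libraries and 3 in a fit of these 6 alone. In the other direction 1 gene was called lower with 0 counts in all EZH2i libraries.

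The largest falls included CD180, HBEGF and CYBB, genes of innate sensing, growth factor signalling and superoxide production. CD180, a Toll-like receptor homologue of B cells, stood at 3.88, 3.95 and 3.23 CPM with EZH2i and at 19.7, 17 and 16.2 CPM with DMSO (log2 fold change -2.26 ± 0.19, adjusted p = 3.5e-12). HBEGF (chr5:140332843-140346603), a ligand of the EGF receptor, had 16.6, 13.5 and 19.6 CPM with EZH2i against 68.7, 67.0 and 71.4 CPM with DMSO (-2.05 ± 0.16, adjusted p = 1.4e-12). CYBB, which transfers the electrons in the NADPH oxidase of phagocytes, had 2.002, 2.38 and 1.89 CPM with EZH2i against 10.1, 8.12 and 7.14 CPM with DMSO (-2.01 ± 0.23, adjusted p = 1.7e-08). In each of these 3 genes all EZH2i libraries lay below every DMSO library without overlap, a condition set when the largest changes were chosen. Of all genes tested, 14.7% did not overlap with EZH2i lower. The adaptor SLA2 (-2.08), RIPOR1 (-1.85), MAG (-1.72), the macrophage perforin MPEG1 (-1.55), the gasdermin GSDME (-1.51), RGS8 and SSTR3 (-1.43 each) complete the 10 largest falls. The falls with the smallest p among abundant genes were LAPTM5, a lysosomal protein that dampens antigen receptor signalling, and TMSB4X, an actin-sequestering peptide. LAPTM5 had 55.0, 69.5 and 63.6 CPM with EZH2i against 150.7, 175.1 and 134.3 CPM with DMSO, and TMSB4X had 92.9, 103.4 and 98.3 CPM with EZH2i against 221.6, 210.9 and 181.6 CPM with DMSO. DEF6 (log2 fold change -0.70), which acts downstream of antigen receptors, RBM6 (-0.65) and GPATCH11 (-0.62) fell less but as evenly.

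**Figure D3:**
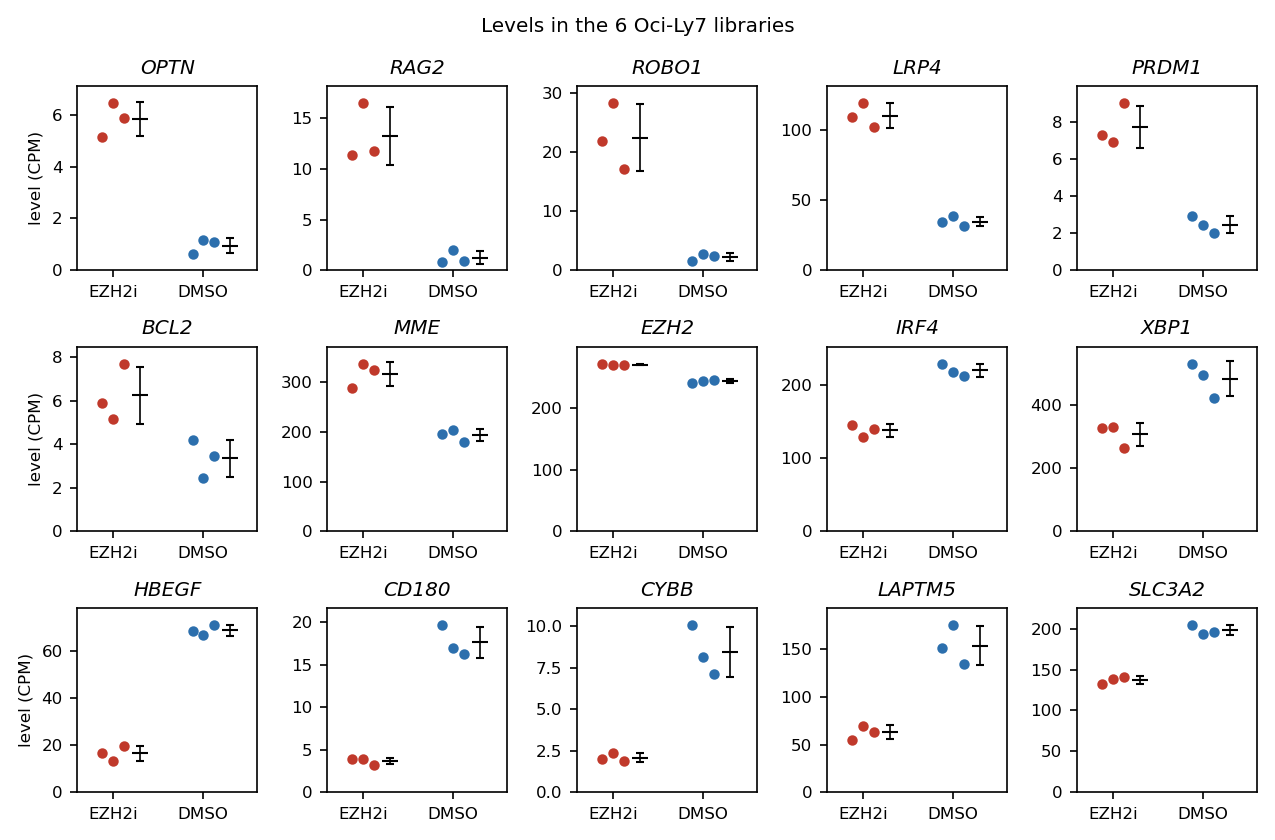
CPM of 15 genes in each of the 3 EZH2i libraries (red) and 3 DMSO libraries (blue) of Oci-Ly7, with the mean and SD beside the points (black) and each axis starting at 0. The groups do not overlap in any panel. OPTN, RAG2, ROBO1, LRP4, PRDM1, BCL2 and MME lie higher with EZH2i, and IRF4, XBP1, HBEGF, CD180, CYBB, LAPTM5 and SLC3A2 lower, while EZH2 differs by 1.11-fold.

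EZH2 itself had 272.6, 270.4 and 270.8 CPM with EZH2i against 241.5, 244.8 and 247.0 CPM with DMSO. Every EZH2i library was higher, but the log2 fold change of 0.15 ± 0.06 was not called (adjusted p = 0.089). It was called with the replicate number as a block (adjusted p = 0.030), without the Oci-Ly8 libraries named above (0.019) and in fits of Oci-Ly7 alone (0.026 for 12 libraries, 0.023 for 6). Of 12 PRC2 subunit genes tested 2 were called higher (16.7%, against 8.78% of all genes) and 1 lower (8.33%, against 4.92%). JARID2 (log2 fold change 0.39) and EPOP (0.51) were the higher ones and MTF2 (-0.38) the lower. EPOP was not called without DMSO replicate 2. PRC1, the second Polycomb complex, compacts chromatin and ubiquitinates histone H2A. Of its 21 genes 6 were called higher (28.6%, against 8.78% of all genes) and 2 lower (9.52%, against 4.92%), with a median log2 fold change of 0.08. PHC2 (0.57), BMI1 (0.55), RNF2 (0.51) and CBX2 (0.42) led its rises. The 2 lower ones became 1 without DMSO replicate 1 or 2 or EZH2i replicate 1 or 2. None of 8 genes of the H3K27 demethylases and the MLL3/4 complex passed. DOT1L was not called (log2 fold change 0.02). Of 15 genes of DOT1L and its partners MLLT3 was called higher (0.69) and ELL lower (-0.26), 6.67% in each direction. With the block 4 were higher. The ELL call did not pass without DMSO replicate 1 or EZH2i replicate 3.

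Few of the developmental genes that PRC2 is known to silence passed the test. Of 22 HOX genes tested none was called in edgeR's test, and 14 of the 36 annotated in the files had 0 counts in all 6 libraries. Of 51 other developmental transcription factor genes tested 2 were called higher (3.92%, against 8.78% of all genes) and 1 lower (1.96%, against 4.92%). With DMSO replicate 1 left out 4 were higher. Of the 104 annotated 53 were at 0 counts. More log2 fold changes were positive than negative, 14 against 2 for HOX genes and 25 against 11 for the others. With genes at 0 counts in a group set to their bound, the medians were 0.25 and 0.39 (15 and 28 genes), against 0.022 for all genes. SOX2, a factor of stem cells and neural precursors, had 228.4, 231.2 and 245.1 CPM with EZH2i against 100.4, 96.6 and 106.3 CPM with DMSO (log2 fold change 1.22 ± 0.14, adjusted p = 2.9e-07). SOX2-OT, the transcript that overlaps it, was higher as well (log2 fold change 2.17), and without the strand setting their reads cannot be told apart where they overlap. POU4F1 was higher (0.84) and RUNX2 lower (-0.82).

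Signalling and adhesion genes outside the B cell programme rose often. Of 55 genes of the WNT and TGF-beta pathways 20 were called higher and 1 lower, 36.4% against the 8.78% of all genes, with a median log2 fold change of 0.25, or 0.30 with genes at 0 counts in a group set to their bound (0.022 for all genes). SMAD1, which carries bone morphogenetic protein (BMP) signals to the nucleus, had 55.6, 67.1 and 61.1 CPM with EZH2i against 33.01, 37.1 and 32.1 CPM with DMSO (log2 fold change 0.84 ± 0.09, adjusted p = 2.6e-10). SMAD9 of the same class rose by 1.36 on the log2 scale. The receptor TGFBR1, at 97.9 ± 4.0 CPM with EZH2i and 50.8 ± 2.0 CPM with DMSO (SD, n = 3 libraries each), rose by 0.95, and the ligand BMP7 rose by 0.89. ID3, a target and inhibitor in this pathway, was the member called lower (-0.49). Of 52 axon guidance and adhesion genes 13 were called higher (25%) and 1 lower (1.92%), with a median of 0.44, or 0.50 at the bound. Besides ROBO1 and NRCAM these included the ephrin receptor EPHB2 (1.87) and the plexin PLXNC1 (1.5), and the one lower was the semaphorin SEMA4A (-1.06). PLXNC1 overlaps CEP83, which was called higher too. Among 45 genes of collagens, laminins and integrins 7 were higher (15.6%) and 5 lower (11.1%, against 4.92% of all genes). Integrin beta 1 (ITGB1) was higher by 0.45, and the leukocyte integrin chains ITGAL (-0.43), ITGB2 (-0.61) and ITGB7 (-0.77) were lower.

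In the plasma cell programme PRDM1 rose and most other calls were falls. PRDM1 (chr6:105993463-106109939) encodes BLIMP1, a factor that ends the germinal centre programme. It had 7.28, 6.90 and 9.03 CPM with EZH2i against 2.92, 2.47 and 2.02 CPM with DMSO (log2 fold change 1.65 ± 0.30, adjusted p = 0.00011). Of 30 plasma cell genes tested, PRDM1 alone was called higher and 12 were called lower (40%, against 4.92% of all genes), with a median log2 fold change of -0.27. Without EZH2i replicate 2 the 12 became 7. IRF4, which works with BLIMP1 in plasma cells, had 145.0, 128.7 and 140.4 CPM with EZH2i against 229.0, 218.2 and 212.5 CPM with DMSO (-0.67 ± 0.13, adjusted p = 0.00019). XBP1, the factor of the secretory apparatus, had 326.5, 331.9 and 264.8 CPM with EZH2i against 531.2, 495.7 and 423.2 CPM with DMSO (-0.65 ± 0.11, adjusted p = 4.4e-05). DERL3 (-0.86), TXNDC11 (-0.66) and SEL1L (-0.50), which serve protein folding and disposal in the endoplasmic reticulum, and the surface enzyme CD38 (-0.44) were lower, and SDC1 had 0 counts in all 6 libraries. DERL3 and TXNDC11 each overlap a gene called lower too, SMARCB1 and SNN. JCHAIN did not pass (-0.46, adjusted p = 0.12), but was called with the replicate block (3.6e-05).

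Among germinal centre genes the share called lower exceeded that of all genes, and the share called higher was near it. BCL6 was not called, with 221.0, 188.7 and 210.8 CPM with EZH2i and 218.1, 188.1 and 220.2 CPM with DMSO, and MYBL1 (-0.22, adjusted p = 0.28) was not called. MME, the surface peptidase CD10, had 289.0, 337.1 and 323.9 CPM with EZH2i against 195.5, 204.0 and 180.3 CPM with DMSO (log2 fold change 0.71 ± 0.11, adjusted p = 5.3e-06). Of 33 germinal centre genes tested 3 were higher (9.09%, against 8.78% of all genes) and 7 lower (21.2%, against 4.92%), the 3 being MME, ETV6 (0.48) and MEF2C (0.38). With the replicate block 5 were higher. IRF8 (-0.63), the migration receptor S1PR2 (-0.60) and FOXO1 (-0.38) were among the 7. S1PR2 overlaps DNMT1, which was called lower too, and MEF2C the antisense MEF2C-AS2, called higher. Of 20 genes listed as Polycomb-silenced in germinal centre B cells, 6 were called higher (30%) and 4 lower (20%). Not all were silent in Oci-Ly7 before inhibition: with DMSO, EPHB2 averaged 1.03 CPM and IRF4 219.9 CPM. Whether PRC2 acts on these genes in Oci-Ly7 was not tested. PRDM1, EPHB2, TNFRSF13C (the BAFF receptor, 0.92), TNFRSF21 (0.52) and STAT3 (0.25, not called without EZH2i replicate 1 or 2 or with no filter) were among those higher, and IRF4, TNFRSF13B (-0.69), FCRL5 (-0.66) and SLAMF6 (-0.45) were lower.

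Among antigen receptor and B cell surface genes more were called lower than higher. PAX5 (-0.05), CD79A (0.02) and CD79B (0.01) were not called, and the early B cell factor EBF1 rose (0.44). Over all genes tested 8.78% were called higher and 4.92% lower. Of 30 pan-B genes 3 were called higher (10%) and 9 lower (30%), with a median of -0.20. Of 29 genes of B cell receptor signalling 3 were higher (10.3%) and 12 lower (41.4%), with a median of -0.19. The 3 higher ones dropped to between 0 and 1 in every fit that left out 1 of the 6 libraries. CD22, an inhibitory receptor, had 328.9 ± 5.7 CPM with EZH2i and 487.2 ± 25.3 CPM with DMSO (SD, n = 3 libraries each; -0.57), and CD72 (-0.53) and the phosphatases PTPN6 (-0.78) and INPP5D (-0.53), which also restrain the receptor, fell too. CD22 overlaps a lncRNA gene and, in other lists, CNR2 and TNFRSF13B each overlap a pseudogene or transcript, BTBD6P1 and TBC1D27P, all called lower. The kinase LYN (-0.48) and VAV1 (-0.44), which promotes signalling, were called lower as well. MS4A1, the surface protein CD20, had 1248, 1184 and 1250 CPM with EZH2i against 1429, 1396 and 1422 CPM with DMSO. It was not called (-0.21, adjusted p = 0.17), but was with the replicate block (0.028). Of 12 Fc receptor-like and SLAM receptors 7 were lower (58.3%) and none higher (median -0.37), with FCRL1 at -0.84, FCRL5 at -0.66 and LY9 at -0.58.

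Some genes of antigen presentation by MHC class II fell. Of 20 genes tested 6 were called lower (30%, against 4.92% of all genes) and none higher (median -0.25), and 10 were lower with the replicate block. The 6 became 3 without DMSO replicate 1, 2 without EZH2i replicate 1 and 3 without EZH2i replicate 2. CIITA, the master activator of these genes, had 32.2, 28.6 and 34.1 CPM with EZH2i against 42.5, 43.9 and 41.3 CPM with DMSO (-0.43 ± 0.11, adjusted p = 0.0044). CD74, the invariant chain, had 812.3, 837.9 and 905.6 CPM with EZH2i against 1137, 1184 and 1166 CPM with DMSO (-0.45 ± 0.07, adjusted p = 1.4e-05). The groups do not overlap for either gene. MHC class I and its loading machinery had 2 of 19 genes called lower (10.5%) and none higher. All 7 genes of the NADPH oxidase list, which makes superoxide in phagocytes and B cells, had a negative log2 fold change (median -0.44). Of these 5 were called lower (71.4%), including NCF1 (-0.80) beside CYBB. VAV1, given above with antigen receptor signalling, is in this list too and is 1 of the 5, so the lists share members. NCF1 has near-identical pseudogene copies, so its count is uncertain. Of 17 genes of Toll-like receptor signalling 4 were lower (23.5%) and none higher: CD180, TLR7 (-0.88), UNC93B1 (-0.50) and TLR1 (-0.77). TLR1 was not called when any library but DMSO replicate 2 was left out.

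Among receptors for migration and cytokines the shares called lower exceeded the 4.92% of all genes. Of 26 migration receptors 4 were higher (15.4%, against 8.78% of all genes) and 7 lower (26.9%), with the cannabinoid receptors on opposite sides. CNR1 had 339.0 ± 5.5 CPM with EZH2i and 222.3 ± 3.7 CPM with DMSO (SD, n = 3 libraries each; 0.61), and CNR2 had 27.5 ± 0.8 CPM with EZH2i and 41.3 ± 0.3 CPM with DMSO (-0.58). The cytokine receptors IL4R (-0.57), CSF2RB (-0.88) and IL12RB1 (-0.67) and the kinase JAK3 (-0.48) were among 7 of 39 called lower in their list (17.9%), and the 4 called higher (10.3%, near the share of all genes) became 1 to 2 without DMSO replicate 3, EZH2i replicate 1 or EZH2i replicate 2. Of 24 NF-kB genes 6 were higher (25%, against 8.78% of all genes) and 4 lower (16.7%, against 4.92%). IER3 (1.97) and NFKBIZ (1.07), both early response genes, and TRAF3 (0.85), which restrains the non-canonical branch, were among the higher. The 4 lower ones became 0 without DMSO replicate 3 or EZH2i replicate 2 and 2 without EZH2i replicate 1, and the 6 higher ones became 3 without DMSO replicate 2. Interferon response genes had 5 of 54 called in each direction (9.26%, near the share of all genes for those higher), with PARP12 (1.21) higher and ISG20 (-0.76) lower. The higher ones became 2 without EZH2i replicate 2 and 3 without any of the other libraries but EZH2i replicate 1, and the lower ones 3 without DMSO replicate 2 and 2 without EZH2i replicate 2. TNF receptor and ligand genes had 2 of 29 called in each direction (6.9%, with 4 lower under the block). Of 25 memory and exit genes 4 were higher (16%) and 3 lower (12%), and the 4 became 7 with the block and 1 without EZH2i replicate 3.

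Nearly as many genes of amino acid supply and the ATF4 stress response were called lower as were not called. Of 30 tested 14 were called lower (46.7%, against 4.92% of all genes), 15 were not called and 1 was called higher, with a median log2 fold change of -0.33. SLC3A2, the heavy chain of the large neutral amino acid transporter, had 137.1 ± 4.6 CPM with EZH2i and 198.1 ± 5.7 CPM with DMSO (SD, n = 3 libraries each; -0.53). SLC1A4, a neutral amino acid transporter, fell by 0.75 on the log2 scale, and the glycyl and methionyl tRNA synthetases GARS1 and MARS1 fell by 0.43 and 0.42. SLC1A4 overlaps LINC02245 and MARS1 overlaps ARHGAP9, both called lower. SLC38A2, another amino acid transporter, was the one called higher (0.56). In the fit of the 12 Oci-Ly7 libraries the 14 became 9. In the MYC and nucleolar list 2 of 35 were called lower, 5.71% and so near the share of all genes, and none higher, with 8 lower under the replicate block and 4 without DMSO replicate 1. Of its log2 fold changes 31 were negative, with a median of -0.12 against 0.0056 over all genes tested. MYC had 260.9, 232.0 and 232.2 CPM with EZH2i against 237.1, 196.7 and 211.3 CPM with DMSO and was not called (0.17, adjusted p = 0.25, and 0.040 with the block). Of 32 genes of cholesterol and fatty acid synthesis 4 were called higher (12.5%, against 8.78% of all genes), 10 with the block. Of their log2 fold changes 27 were positive, with a median of 0.14. STARD4, which moves cholesterol between membranes, rose by 0.53.

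Few proliferation genes were called in the main fit. Of 46 replication genes 2 were called in each direction (4.35% each, against 8.78% of all genes higher and 4.92% lower). The lower ones became 4 with the block and 7 in fits of the 12 Oci-Ly7 libraries or the 6 alone. Of 43 mitosis genes 2 were higher (4.65%) and none lower, with 5 and 6 higher in the fits of 12 and 6 libraries. The clearest was topoisomerase TOP2A, at 1181 ± 31.2 CPM with EZH2i and 1005 ± 18.9 CPM with DMSO (SD, n = 3 libraries each, log2 fold change 0.23). CDKN1A had 4 counts in all with EZH2i, near the floor, CDKN1B was not called (0.12, adjusted p = 0.46), and CDKN1C and CDK6 (0.81) were higher. BCL2, the antiapoptotic gene, had 5.88, 5.14 and 7.69 CPM with EZH2i against 4.17, 2.47 and 3.44 CPM with DMSO (0.92 ± 0.25, adjusted p = 0.0094), a call lost without DMSO replicate 2 (0.10) or EZH2i replicate 3 (0.086). In the BCL2 family 3 of 16 were higher (18.8%, against 8.78% of all genes) and 4 lower (25%, against 4.92%). Among them the proapoptotic HRK was higher by 0.52 and BIK lower by 0.87, with BCL2L1 lower by 0.48. The 4 became 2 without DMSO replicate 1, EZH2i replicate 2 or EZH2i replicate 3. Of 29 p53 targets 1 was higher (3.45%) and 3 lower (10.3%, with 5 lower under the block). Of 26 glycolysis genes 2 were called in each direction (7.69%, with 4 lower under the block).

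**Figure D4:**
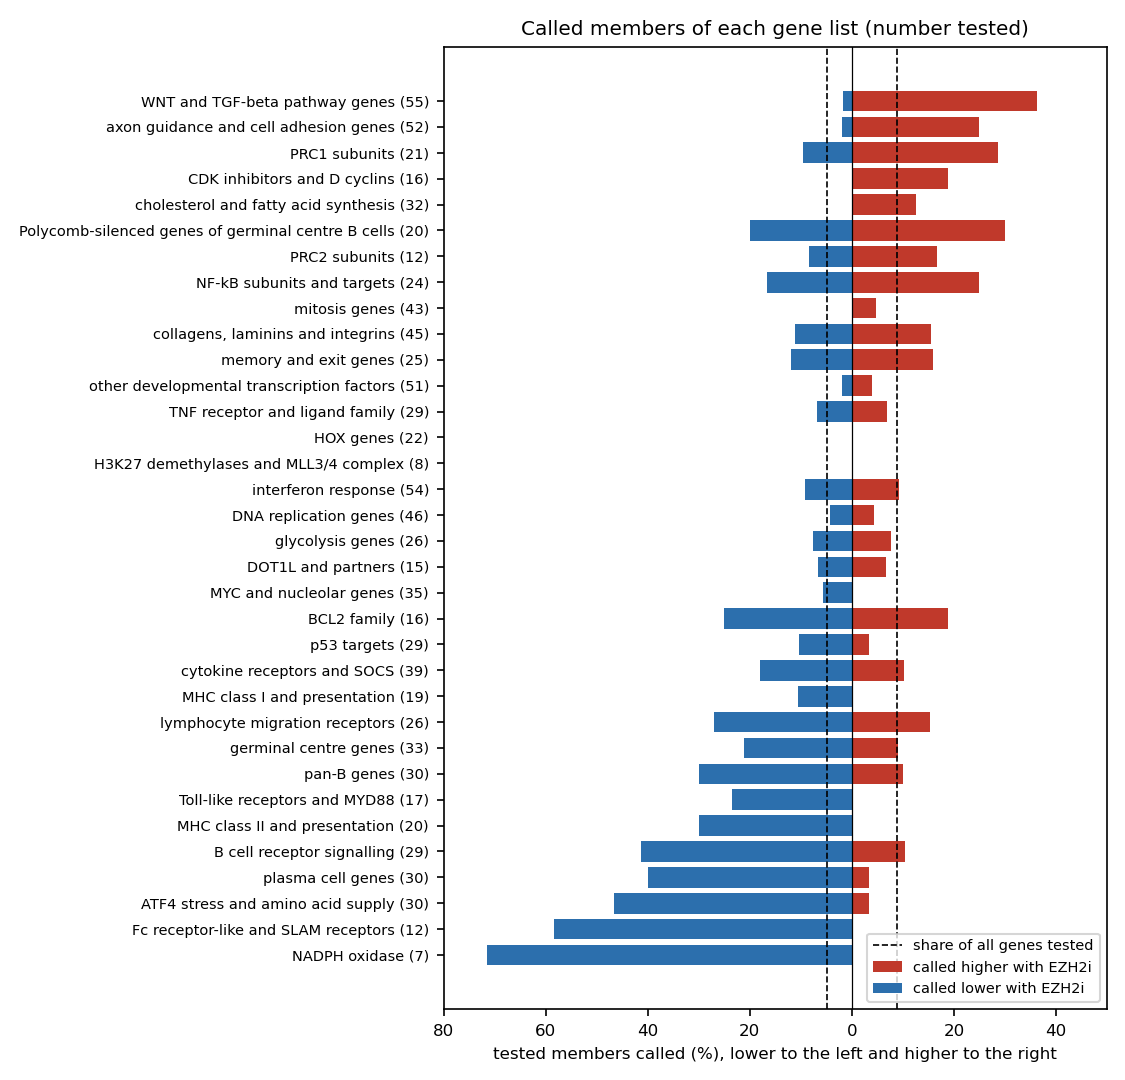
Percent of tested members of each gene list called higher with EZH2i (red, to the right) and called lower (blue, to the left), with the number tested in parentheses, and the shares over all genes as dashed lines (8.78% higher, 4.92% lower). The lists on WNT and TGF-beta and on axon guidance and adhesion extend mainly right, and those on the NADPH oxidase, Fc receptor-like and SLAM receptors, ATF4 and plasma cells mainly left.

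Markers of other cell types were mostly near 0 or not called. In bulk RNA, fewer cells of a type and less RNA per cell cannot be told apart. Summed over 11 T cell markers tested, levels ran from 201.5 to 221.4 CPM with EZH2i and from 247.0 to 289.2 CPM with DMSO, and 1 was higher and 2 lower. TRAC, the T cell receptor alpha constant gene, had 21.4, 22.5 and 25.2 CPM with EZH2i against 49.96, 58 and 47.98 CPM with DMSO (log2 fold change -1.18), CD28 fell by 0.85, and CD3G rose to 1.13 ± 0.14 CPM with EZH2i, against 0.0639 ± 0.0079 CPM with DMSO (SD, n = 3 libraries each). Of the 16 T cell markers listed 6 had 0 counts in all 6 libraries. Summed myeloid markers ran from 5.02 to 6.41 CPM with EZH2i and from 4.50 to 4.99 CPM with DMSO, with CD33 higher by 1.83 and CSF1R called higher from 0 counts, a call lost without EZH2i replicate 3. Summed neuronal and glial markers ran from 15.6 to 16.9 CPM with EZH2i and from 8.76 to 10.4 CPM with DMSO, with the neuronal MAP2 (2.40) and the glial GFAP (3.76) higher. Fibroblast and endothelial markers summed to 89.6 to 94.9 CPM with EZH2i and 73.7 to 79.4 CPM with DMSO, with 2 of 7 higher. No NK, epithelial or erythroid and megakaryocytic marker was called in edgeR's test. The part of other cells in the results above was not tested.

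Rises and falls sometimes lay side by side on a chromosome. Runs of at least 4 neighbouring tested protein-coding genes called in the same direction numbered 6 higher and 1 lower. The longest had 5 genes: SPA17, NRGN, ESAM, MSANTD2 and ROBO3 on chromosome 11, with log2 fold changes of 0.58, 0.73, 1.98, 0.58 and 1.95, and PKP4, DAPL1, TANC1, WDSUB1 and BAZ2B on chromosome 2, with 0.92, 3.48, 4.08, 1.43 and 0.48. RALB ended a run with PTPN4, EPB41L5 and TMEM185B on chromosome 2, and TGFBR1 one with ANKS6, GALNT12 and COL15A1 on chromosome 9. The lower run held TBX10, ACY3, ALDH3B2 and UNC93B1 on chromosome 11. No test of clustering was made, and genes that overlap can share reads.

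Whether changes in Oci-Ly7 differed from those in other lines was tested as its EZH2i effect minus their mean EZH2i effect. The other lines, Oci-Ly8, SUDHL6 and Oci-Ly18, share no libraries with it. A gene can pass this test and still change in the same direction in the other lines. A gene with 0 counts in whole groups of another line can hardly pass it, because its difference then has a very large SE. MOBP had a difference of 5.045 with an SE of 4.713e+04. GLYATL2, TENM1, MAT1A and ACKR3, also among the largest rises, had SEs of 5863, 4104, 5001 and 4645. For such genes the test cannot say whether the lines differ, and the numbers below leave them out. The effect was higher in Oci-Ly7 for 516 genes (2.91% of those tested) and lower for 563 (3.17%), 6.08% in either direction. With the replicate block the 563 became 859 and the 516 became 873, and without the same Oci-Ly8 libraries the 516 became 859. Of the 1559 genes called higher in Oci-Ly7, 368 also had a higher effect than in the other lines, and of the 874 called lower 284 had a lower one. A further 147 and 274 differed between lines without being called in Oci-Ly7.

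Many of the genes called in Oci-Ly7 were called in the same direction in another line. Of the genes called higher in Oci-Ly7, 505 were called higher in Oci-Ly8 (32.4% of the Oci-Ly7 list and 31.5% of the Oci-Ly8 list), where 9.04% of all genes were. In SUDHL6 it was 565 (36.2% and 22.7%), where 14% of all genes were called higher, and in Oci-Ly18 469 (30.1% and 20.4%), where 13% were. All 3 other lines shared 125 of the 1559, and none shared 592. For the genes called lower the shared numbers were 197 (22.5% and 13.98%; 7.94% of all genes) in Oci-Ly8, 250 (28.6% and 16.3%; 8.67%) in SUDHL6 and 248 (28.4% and 15.5%; 9.04%) in Oci-Ly18, with 43 shared by all 3 and 404 by none. Of the genes called higher in Oci-Ly7, 168 were called lower in at least 1 other line, and of those called lower 195 were called higher in another. CYBB fell in all 4 lines (log2 fold change -2.01 in Oci-Ly7, -1.13 in Oci-Ly8, -2.32 in SUDHL6 and -2.26 in Oci-Ly18), and its effect in Oci-Ly7 did not pass the test of a difference (-0.10).

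OPTN, RAG2, DNAJB4, RALB and CTNNA1 were among the genes with the smallest p for a higher effect. OPTN had a log2 fold change of 2.58 in Oci-Ly7, of -0.13 in Oci-Ly8, 0.03 in SUDHL6 and -0.67 in Oci-Ly18, a difference from their mean of 2.84 (adjusted p = 6.2e-15). RAG2, RALB, DNAJB4 and CTNNA1 rose in Oci-Ly7 with values between -0.60 and 0.46 in the other lines. Among these values, CTNNA1 was called higher in Oci-Ly8 (0.29) and SUDHL6 (0.24), and RAG2 in Oci-Ly8 (0.46). DNAJB4 was called lower in Oci-Ly18 (-0.60). OPTN and RAG2 had far higher levels in the other lines. With DMSO, OPTN averaged 106.0 ± 11.2 CPM in Oci-Ly8, 95.7 ± 1.4 CPM in SUDHL6 and 48.1 ± 2.7 CPM in Oci-Ly18 (SD, n = 3 libraries each), against 5.82 CPM with EZH2i in Oci-Ly7. The RAG2 levels given above for these lines also lie above the 13.2 CPM of EZH2i-treated Oci-Ly7 cells. SMAD1 rose in Oci-Ly7 by 0.84 and stood at 0.34, -0.59 and -0.58 in the others. IRF4 ran the other way: -0.67 in Oci-Ly7 against 0.77, 0.48 and 0.76 in Oci-Ly8, SUDHL6 and Oci-Ly18, a difference of -1.34 (adjusted p = 5.4e-08). Of the 30 plasma cell genes 17 had a lower effect in Oci-Ly7, of the 20 MHC class II genes 10 had a lower one, and of the 30 pan-B genes 9 had a lower one, against 3.17% of all genes. CIITA had log2 fold changes of 0.30, 0.06 and 0.31 in the other lines. MS4A1 was not called in Oci-Ly7 (-0.21) and stood at 0.37, 2.23 and 0.28 in the others. HBEGF fell by 2.05 in Oci-Ly7 and stood at 1.83 (not called), -0.06 (not called) and 1.97 in the others. Its DMSO levels were low in Oci-Ly8 (0.149 CPM) and Oci-Ly18 (0.833 CPM), against 50.9 CPM in SUDHL6 and 69.0 CPM in Oci-Ly7. LAPTM5 fell by 1.29 against 0.07, -0.15 and 0.12. PRDM1, at 0.65, 0.49 and 0.94 in the others, did not pass this test (difference 0.95, adjusted p = 0.12), but passed with DESeq2, with no filter, with the block, with the 24 EZH2i and DMSO libraries alone and without SUDHL6 EZH2i replicate 3.

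**Figure D5:**
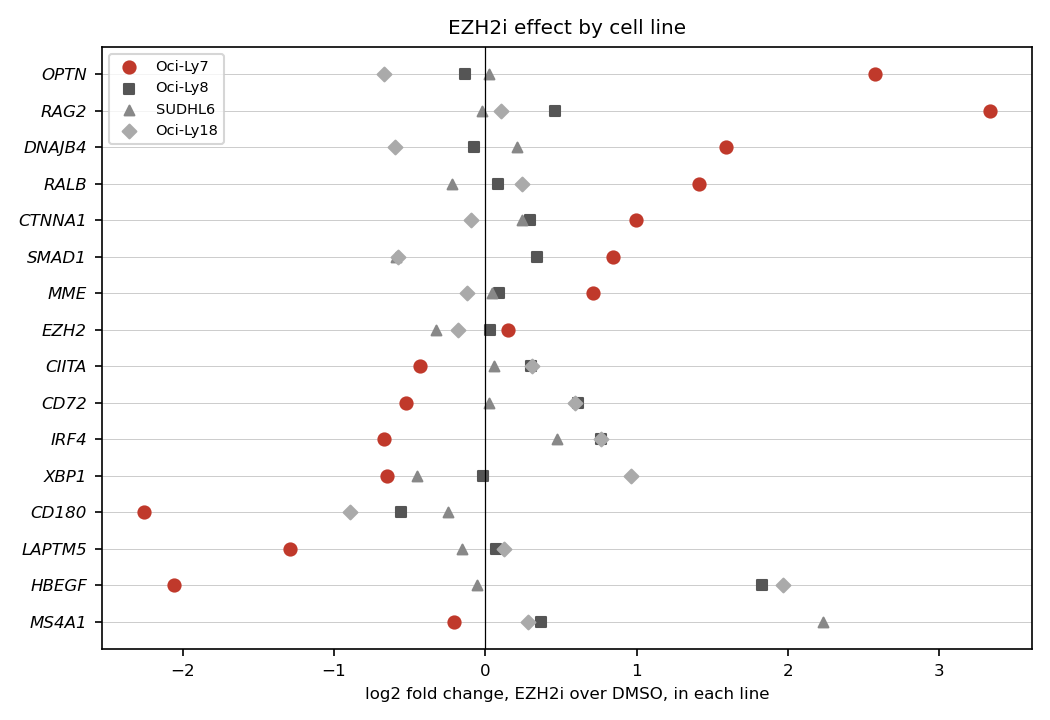
Log2 fold change of EZH2i over DMSO for 16 genes in Oci-Ly7 (red circles) and in Oci-Ly8, SUDHL6 and Oci-Ly18 (grey squares, triangles and diamonds). The Oci-Ly7 point lies right of the other 3 for OPTN through EZH2 and left of them for CIITA through MS4A1.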

How the data were processed

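RNA-seq counts per gene were deposited by the authors as 1 table of 37706 genes and 48 libraries, raw and not normalized. Per the submitters' processing notes, STAR, DESeq2 and the builds GRCh38 and hg38 were used, without versions, and per the labels' protocols libraries were made with a stranded poly(A) kit. The counter, its strand setting and the annotation release were not found in those sources, so reads of overlapping genes cannot be told apart. CPM values shown are counts divided by TMM-adjusted library size.

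The main test was edgeR 4.0.16 (quasi-likelihood F test, TMM, robust, R 4.3.3) over all 48 libraries in 16 groups, with 32 residual degrees of freedom. It kept 17749 genes by filterByExpr, with Benjamini-Hochberg adjustment over them and a threshold of 0.05. SE is that of the log2 fold change. All groups enter the fit, which assumes that they share 1 spread per gene. Fits of the 12 Oci-Ly7 libraries or of the 6 compared called more genes, both higher and lower. They called fewer genes higher by at least 2-fold, 418 and 332 against 497, and tested fewer genes, 13985 and 13260. No library pair within a group agreed within sampling noise. Precision rests on 3 libraries per group, and floors (3 counts over a group) cover counting error only. Doses were not used.

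Same-numbered EZH2i and DMSO libraries of Oci-Ly7 deviated together (r = 0.281, 0.196 and 0.217 over 8891 genes, each number's best match), so the replicate block is treated as a pairing, a pattern read from the data since the labels do not say what a number marks. Alternatives were DESeq2 1.42.0, its size factors, no filter, the block, fits of fewer libraries and each library left out. On simulated counts for EZH2i against DMSO in Oci-Ly7 (17581 genes), the test recovered 50 of 80 genes changed by 0.5 on the log2 scale, 72 of 80 changed by 1 and 40 of 40 changed by 2, with 8 false calls. The changed genes were drawn from those above 1 CPM, so recovery at lower levels was not measured. The shared deviation of same-numbered libraries was not simulated.

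Genes named are a panel, the 10 largest changes each way among called protein-coding genes of at least 1 log2 CPM whose groups do not overlap, the 8 smallest p each way, 8 called genes with 0 counts in DMSO, up to 4 called members per list and direction, and 6 each way for the difference between lines. RAG1, DNTT, IGLL1, VPREB1, VPREB3, CD79A, CD79B, LMO2, overlapping genes and genes in neighbouring runs were added after their values were seen. Members and lists were chosen with earlier results of these data known. Some genes that the rule names are not reported here.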

Additional observations from a re-analysis of the deposited data

Results flagged for a closer look

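The EZH2i effect in Oci-Ly7 differed from the mean effect in Oci-Ly8, SUDHL6 and Oci-Ly18, by edgeR's test of the difference itself, for 516 genes with a higher and 563 with a lower effect. Values here are that difference in log2 fold change unless stated. Among the genes named, it was positive for OPTN (2.84), RAG2 (3.15), ROBO1 (3.02), CCDC112 (2.54), DNAJB4 (1.75), RALB (1.37), SMAD1 (1.12), CTNNA1 (0.849), MME (0.708), MYO1D (0.663), CCDC92 (0.634), CDKN1B (0.36) and EZH2 (0.308). MYO1D (log2 fold changes 0.60, 0.32 and 0.67) and CCDC92 (1.04, 1.00 and 0.78) were also called higher in Oci-Ly8, SUDHL6 and Oci-Ly18, so their differences are of degree. NRCAM gave a difference of 5.51, a value that depends on the prior count because the gene had 0 counts in Oci-Ly7 DMSO libraries. The difference was negative for HBEGF (-3.3), MPEG1 (-1.7), CD180 (-1.69), RIPOR1 (-1.67), GSDME (-1.53), IRF4 (-1.34), LAPTM5 (-1.31), MS4A1 (-1.17), CD72 (-0.935), TMSB4X (-0.875), XBP1 (-0.817), CD38 (-0.727), DEF6 (-0.677), CIITA (-0.651), GPATCH11 (-0.571) and RBM6 (-0.527). For HBEGF it rests in part on the low levels in Oci-Ly8 and Oci-Ly18 given above.

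CORO2B (-1.4), ANXA6 (-1.06) and MTCL1 (-1.51) were also lower in effect, with log2 fold changes in Oci-Ly7 itself of 0.03, 0.11 and -0.41. The differences for CD38, CDKN1B and MPEG1 depended on single libraries. CD38 did not pass without Oci-Ly7 EZH2i replicate 2 or Oci-Ly8 DMSO replicate 1, DMSO replicate 2 or EZH2i replicate 2. CDKN1B did not pass without Oci-Ly7 DMSO replicate 2 or 3, EZH2i replicate 1 or 2 or Oci-Ly18 EZH2i replicate 2. MPEG1 did not pass without Oci-Ly7 DMSO replicate 2 or EZH2i replicate 1.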

How the results depend on the processing

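The number of genes called lower was 1386 with the replicate block, 1403 without Oci-Ly8 DMSO replicate 3 and DOT1L inhibitor replicate 3, 1491 with the 12 Oci-Ly7 libraries alone and 1808 with the 6 alone, against 874. In the same fits and order, genes called higher numbered 2042, 1966, 1800 and 1991, against 1559. Genes higher by at least 2-fold fell to 418 with the 12 Oci-Ly7 libraries and 332 with the 6, against 497. Genes lower by at least 2-fold numbered 72 and 71 in these fits, against 67. Genes with a higher effect than in the other lines numbered 873 with the replicate block and 859 without the same Oci-Ly8 libraries, and genes with a lower effect 859 with the block. The cause was not tested. With each library left out, genes called higher ranged from 1130 to 1335, lower from 592 to 701, higher by at least 2-fold from 382 to 465 and lower by at least 2-fold from 59 to 74. The difference between lines ranged from 348 to 645 higher and from 406 to 669 lower. DESeq2 called 1563 higher and 1092 lower and shared 1460 and 861 of the calls, its size factors gave 1499 and 957, and no filter gave 1467 and 755. No gene called in Oci-Ly7 was called in the other direction in any of these settings. The block kept 1557 of the 1559 genes called higher. Library depth and 3 libraries per group limit the calls of genes near the floor.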
